A study of Mus musculus with 24 samples.

Results

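Cadherins and the factors of the epithelial-mesenchymal transition (EMT) were examined in poly(A) RNA-seq of male primary mouse embryonic stem cell (mESC) lines differentiated towards neuromesodermal progenitors (NMPs), the cells that give rise to spinal cord and trunk mesoderm. The genes were chosen by name, with earlier results of these data known. They are 10 of the 35591 genes in the count table, namely Cdh1, Cdh2, Cdh11, Epcam, Snai1, Snai2, Zeb1, Zeb2, Vim and Fn1. The 24 libraries came from 6 lines, of which 3 were wild type (wt, Smchd1[fl/+]) and 3 heterozygous (het, Smchd1[del/+]), sampled on days 0, 2, 2.5 and 3. All lines were F1 offspring of a Castaneus mother with intact Smchd1 and a C57BL/6 father of the MMTV-Cre colony with a deleted and a floxed Smchd1 allele. The het lines had inherited the deleted paternal allele and the wt lines the floxed one. Each line was derived from its own blastocyst and was sampled once on each of the 4 days. Day 0 cells grew in DMEM with LIF, bFGF was present from day 0 of differentiation in N2B27 medium, and the Wnt activator CHIR99021 was added from day 2. The questions were how the 10 genes moved over each step of the differentiation and whether they differed between het and wt lines.

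Cdh1 (E-cadherin) and Epcam hold epithelial cells together, Cdh2 (N-cadherin) and Cdh11 are the cadherins of neural and mesenchymal cells, and the exchange of the former for the latter is the textbook mark of EMT. Snai1, Snai2, Zeb1 and Zeb2 encode zinc finger repressors that bind E-box motifs and are known to silence Cdh1. Vim encodes the intermediate filament protein of mesenchymal cells and Fn1 the matrix protein fibronectin, and in the embryo such an exchange accompanies the exit of cells from the epiblast through the primitive streak.

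A library held between 7.10 M and 20.8 M counts (median 17.9 M), the smallest being wt line 2 on day 2.5. Levels are given as CPM (counts per 1 M counts) scaled by trimmed mean of M-values (TMM) factors. The limit that a count of 0 allows was taken as 3 counts, or 0.422 CPM in the smallest and 0.144 CPM in the largest library, which covers counting error only. Smchd1 itself stood at 122 to 217 CPM in the wt and 87.5 to 123 CPM in the het libraries, and the genotypes did not overlap on any of the 4 days. On the study's cell types, 9 of 9 pluripotency markers fell from day 0 to day 2 in each genotype. Of all genes 21.9% were lower in wt and 28.1% in het. The 8 NMP markers summed to 3.04 to 7.25 CPM in wt and 5.06 to 7.37 CPM in het on day 2. Sp5 was at 0 in every library of that day. On day 2.5 they summed to 671 to 1303 CPM in wt and 855 to 1112 CPM in het. All 8 were called higher in each genotype, but markers near 0 on day 2 entered the fit only through day 2.5. The 8 of 8 is therefore a description. Wt line 1 had higher levels along chromosome 8, with a median log2 ratio to the other lines of 0.23 over 731 genes against 0.01 over all genes, and Cdh1 and Cdh11 lie on that chromosome. A set of 20 extraembryonic endoderm markers summed to 7613 to 15694 CPM in the wt and 4692 to 6469 CPM in the het libraries on day 2, with Apoa4 at 0 in every library of that day and Afp at 0 in the het libraries.

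RefSeq promoter sequences were at hand for 4 of the 10 genes. Those of Epcam, an epithelial gene, and Snai1, which encodes a repressor that binds E-boxes, are shown because they hold the letters such repressors are known to bind, while the windows of Vim and Zeb2 do not hold them. The 250 bases before the start are printed from GRCm38.p6 on the plus strand, with the E-box CACCTG or its reverse complement CAGGTG in capitals. They lie at chr17:87635729-87635978 for Epcam and chr2:167537945-167538194 for Snai1.
Epcam: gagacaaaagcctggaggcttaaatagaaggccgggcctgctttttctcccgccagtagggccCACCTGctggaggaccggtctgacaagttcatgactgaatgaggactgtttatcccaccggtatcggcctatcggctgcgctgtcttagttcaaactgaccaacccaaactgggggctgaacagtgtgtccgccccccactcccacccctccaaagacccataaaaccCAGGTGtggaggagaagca
Snai1: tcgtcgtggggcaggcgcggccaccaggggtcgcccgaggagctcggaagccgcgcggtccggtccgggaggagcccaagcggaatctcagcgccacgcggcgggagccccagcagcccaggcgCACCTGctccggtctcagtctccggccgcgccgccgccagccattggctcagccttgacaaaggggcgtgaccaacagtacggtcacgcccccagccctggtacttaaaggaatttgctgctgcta
The Epcam window held the motif in 2 places that do not overlap, starting 187 and 19 bases before the start, and the Snai1 window held it once, 126 bases before the start. Of 32851 promoter windows of the same length, 17.2% held the motif on either strand, and a match describes the letters and not a bound site.

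Per kilobase of merged exons, Cdh1 had the highest mean of the 10 genes on all 4 days, although its range overlapped that of Epcam on days 2, 2.5 and 3. On day 0 the mean over 6 libraries was 111 CPM per kilobase for Cdh1, 74.4 for Epcam, 47.2 for Fn1 and 22.8 for Vim, and no neighbours in this order overlapped. The transcription factors were far below, from 3.18 CPM per kilobase for Snai1 to 0.104 for Zeb2. On day 3 Cdh1 stood at 72.5, Epcam at 61.5, Vim at 43.0, Fn1 at 30.1 and Cdh2 at 7.37 CPM per kilobase, and among these only Fn1 and Cdh2 did not overlap as neighbours. Cdh11 had the lowest mean of the 10 genes on each day but overlapped with its neighbour in the order, standing at 0.0312 CPM per kilobase on day 0 and 0.153 on day 3, and the mean of Snai2 was at most 0.496.

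**Figure D1:**
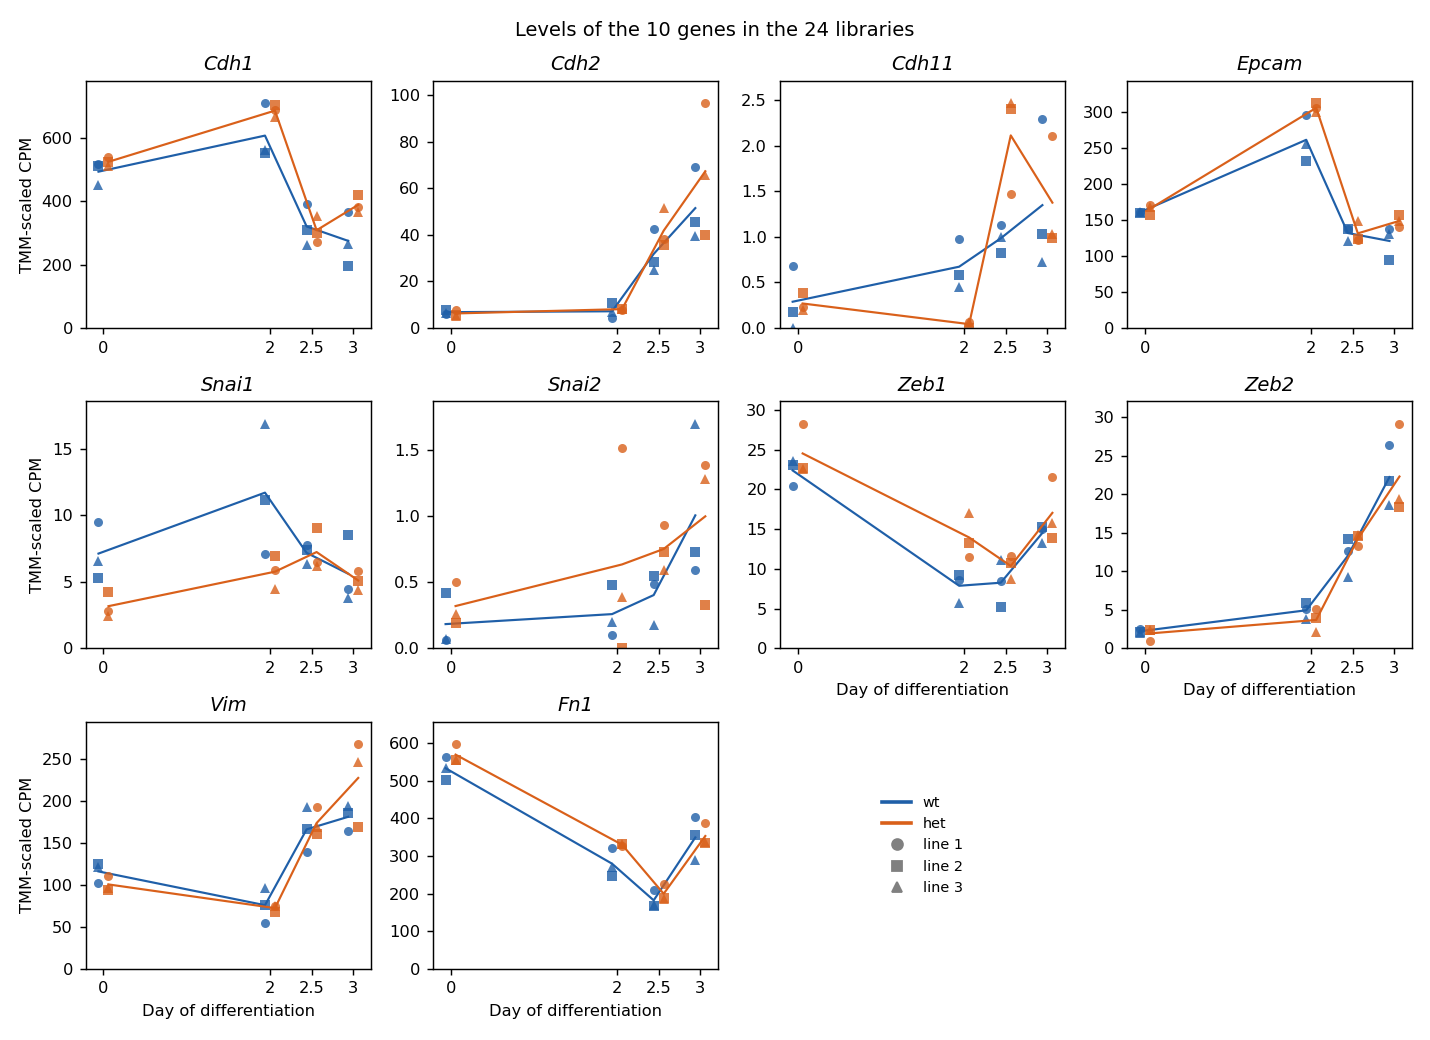
TMM-scaled CPM of each of the 10 genes (vertical axes, linear from 0 and different for each gene) against the day of differentiation, with a point for each line and the mean of 3 lines as a line. Cdh1 and Epcam peak on day 2 and drop by day 2.5, Cdh2 and Zeb2 climb from day 2 onwards, and Zeb1 and Fn1 dip in between.

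Cdh1 (chr8:106603351-106670246, plus strand) rose to day 2 and fell after Wnt activation. In wt lines 1, 2 and 3 it stood at 517, 511 and 452 CPM on day 0, 708, 552 and 561 on day 2, 392, 308 and 262 on day 2.5, and 364, 195 and 264 on day 3. In het lines 1, 2 and 3 it stood at 539, 524 and 511 CPM on day 0, 687, 705 and 666 on day 2, 272, 299 and 354 on day 2.5, and 381, 418 and 366 on day 3. Every day 2 library was above every day 0 library of its genotype, and every day 2.5 library below both. The fall from day 2 to day 2.5 was -0.91 ± 0.15 in wt (log2 fold change ± SE, edgeR adjusted p = 0.000852) and -1.16 ± 0.09 in het (edgeR adjusted p = 3.92e-07). The preceding rise was 0.31 ± 0.11 in wt (edgeR adjusted p = 0.0378) and 0.40 ± 0.05 in het (edgeR adjusted p = 5.55e-06). The wt rise was not called without the day 2 library of line 1, the line with raised chromosome 8, where it was 0.17 (edgeR adjusted p = 0.225), nor without day 0 line 2 (0.0598) or day 0 line 3 (0.21), nor in a fit of all 24 libraries (0.109). Over the last step Cdh1 changed by -0.23 ± 0.21 in wt (edgeR adjusted p = 0.463) and rose by 0.30 ± 0.10 in het (edgeR adjusted p = 0.0447), a call lost without any single het library other than day 2.5 line 3, at 0.0707 to 0.167, and in the fit of all 24 libraries (0.157). Its direction by line was up in 1 of 3 wt and 3 of 3 het lines.

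Epcam (chr17:87635979-87651129, plus strand), the epithelial adhesion molecule, rose and fell over the same steps. The wt lines held 162, 160.1 and 161 CPM on day 0, 297, 232 and 257 on day 2, 138, 137 and 121 on day 2.5, and 138, 94.4 and 131 on day 3. The het lines held 171, 157 and 169 CPM on day 0, 306, 312 and 301 on day 2, 122, 124 and 149 on day 2.5, and 139.9, 158 and 149 on day 3. No library of day 2 overlapped with those of day 0 or day 2.5 in either genotype. Epcam rose by 0.71 ± 0.11 in wt and 0.90 ± 0.06 in het to day 2 (edgeR adjusted p = 0.000118 and 5.76e-09), and then changed by -0.98 ± 0.13 in wt and -1.22 ± 0.09 in het to day 2.5 (edgeR adjusted p = 0.000131 and 1.45e-07). Over the last step it changed by -0.13 ± 0.14 in wt and 0.14 ± 0.09 in het, which did not pass the test, though the het value passed without day 2.5 line 3 (0.26, edgeR adjusted p = 0.0448).

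Cdh2 (chr18:16588877-16809246, minus strand) was low on days 0 and 2 and rose sharply after Wnt activation. The wt lines held 6.11, 7.79 and 6.43 CPM on day 0, 4.07, 10.7 and 6.75 on day 2, 42.5, 28.2 and 24.8 on day 2.5, and 69.4, 45.7 and 39.5 on day 3. In the het lines the values were 7.87, 5.62 and 5.21 CPM on day 0, 7.83, 8.15 and 8.31 on day 2, 38.2, 35.6 and 51.7 on day 2.5, and 96.5, 39.9 and 65.7 on day 3. The days before and after Wnt activation were fully apart, while days 0 and 2 overlapped in both genotypes and differed by 0.09 ± 0.34 in wt and 0.39 ± 0.24 in het without passing. From day 2 to day 2.5 the log2 fold change was 2.17 ± 0.31 in wt and 2.36 ± 0.16 in het (edgeR adjusted p = 0.000311 and 1.02e-07). From day 2.5 to day 3 the level was higher in 3 of 3 lines of each genotype, with a log2 fold change of 0.68 ± 0.24 in wt and 0.65 ± 0.25 in het that did not pass the test (edgeR adjusted p = 0.0697 and 0.0688). With the line as a block, which pairs the days of the same line, this step passed in wt (0.68, edgeR adjusted p = 0.000569) and in het (0.58, edgeR adjusted p = 0.0322). It also passed without wt day 2.5 line 1 (0.96, edgeR adjusted p = 0.0133), het day 2.5 line 3 (0.85, edgeR adjusted p = 0.0385) or het day 3 line 2 (0.92, edgeR adjusted p = 0.00358).

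The ratio of Cdh1 to Cdh2 within a library does not depend on library scaling. Per kilobase, Cdh1 exceeded Cdh2 by 116- to 149-fold in the wt and 121- to 173-fold in the het lines on day 0. On day 2 the ratio was 91.2 to 307 in wt and 141 to 155 in het. By day 2.5 it was 16.2 to 19.3 in wt and 12.1 to 14.8 in het, and by day 3 it was 7.54 to 11.8 in wt and 6.96 to 18.5 in het. Cdh1 thus remained the more abundant transcript per kilobase in all 24 libraries. On the log2 scale the mean was 7.32 ± 0.88 (SD, n = 3) in wt and 7.22 ± 0.07 in het on day 2, and 4.17 ± 0.13 in wt and 3.71 ± 0.16 in het on day 2.5. Fewer cells with a transcript and less of it per cell cannot be told apart in these bulk libraries, here or for the other genes.

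**Figure D2:**
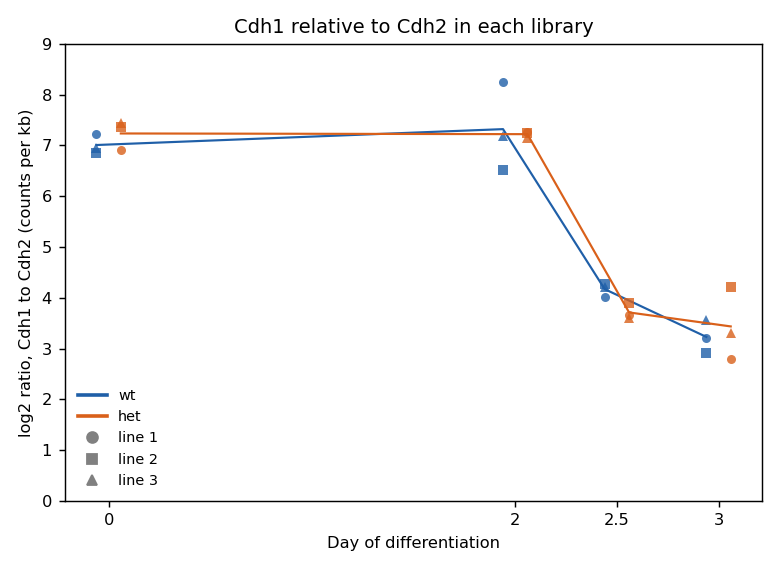
Log2 ratio of Cdh1 to Cdh2 counts per kilobase (vertical axis) in each library against the day of differentiation, with the mean of 3 lines as a line. The ratio sits between 6.51 and 8.26 on days 0 and 2 and between 2.80 and 4.27 on days 2.5 and 3.

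Cdh11 (chr8:102632095-102785642, minus strand), a cadherin of mesenchyme and bone, was close to the limit of detection. It gave 0 to 11 counts per library on day 0. On day 2 the wt lines gave 20, 11 and 9 counts and the het lines 1, 0 and 1. On day 2.5 the wt lines gave 21, 6 and 17 counts and the het lines 30, 46 and 50, and on day 3 the wt lines gave 50, 17 and 12 and the het lines 41, 21 and 21. The het lines therefore lay below the wt lines on day 2 and above them on day 2.5. Summed over the het lines, 126 counts on day 2.5 against 2 on day 2 gave a ratio of 51.2 after scaling, with an exact 95% interval from 13.9 to 428 for counting error only. Cdh11 entered the fit of this step only through its day 2.5 libraries, as none of day 2 reached the filter's minimum, so the step is given as a description with no test. In wt just day 2.5 had all 3 libraries at that minimum, and the value of 0.57 ± 0.67 on the log2 scale is likewise a description. The last step was 0.44 ± 0.58 in wt and -0.66 ± 0.40 in het (edgeR adjusted p = 0.637 and 0.243).

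Among the repressors, Snai1 (chr2:167538195-167542814, plus strand), an early EMT factor of the primitive streak, was low throughout and spread widely among the wt lines on day 2. The wt lines held 9.53, 5.29 and 6.57 CPM on day 0, 7.12, 11.1 and 16.9 on day 2, 7.81, 7.42 and 6.34 on day 2.5, and 4.49, 8.53 and 3.82 on day 3. The het lines held 2.81, 4.28 and 2.44 CPM on day 0, 5.89, 6.95 and 4.48 on day 2, 6.48, 9.05 and 6.21 on day 2.5, and 5.86, 5.08 and 4.39 on day 3. On days 0 and 2 every het library was below every wt library, while on days 2.5 and 3 the genotypes overlapped. The rise from day 0 to day 2 passed in het (0.88 ± 0.32, edgeR adjusted p = 0.0301) and missed the threshold in wt (0.72 ± 0.33, edgeR adjusted p = 0.0905). The het call was lost without day 0 line 1 or line 3 or day 2 line 1 or line 2, with an edgeR adjusted p of 0.0607 to 0.119. The wt value passed without day 0 line 1 (1.00, edgeR adjusted p = 0.0326) or day 2 line 1 (0.97, edgeR adjusted p = 0.0301). The next step was -0.69 ± 0.30 in wt (edgeR adjusted p = 0.105), which passed without day 2 line 1 (-0.96, edgeR adjusted p = 0.0277), and 0.32 ± 0.26 in het (edgeR adjusted p = 0.342).

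Snai2 (chr16:14705852-14709385, plus strand), its close relative in neural crest and mesoderm, gave 28 counts or fewer in every library. Its range was 0.0623 to 0.506 CPM on day 0, 0 to 1.52 on day 2, 0.176 to 0.933 on day 2.5 and 0.329 to 1.70 on day 3. All 3 lines of each genotype were higher on day 3 than on day 0. In wt the counts were 1, 7 and 1 on day 0 and 13, 12 and 28 on day 3, and the gene entered the fit only through the day 3 libraries, so the log2 fold change of 2.38 ± 0.93 is given as a description with no test. In het the gene did not pass the filter on low counts for this comparison.

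Zeb1 (chr18:5591860-5775467, plus strand) fell to day 2 in both genotypes and rose again to day 3 in het. The wt lines held 20.4, 23.1 and 23.6 CPM on day 0, 8.59, 9.28 and 5.75 on day 2, 8.46, 5.22 and 11.1 on day 2.5, and 15.0, 15.2 and 13.3 on day 3. The het lines held 28.2, 22.7 and 22.6 CPM on day 0, 11.5, 13.2 and 17.1 on day 2, 11.6, 10.8 and 8.68 on day 2.5, and 21.5, 13.8 and 15.8 on day 3. Day 0 and day 2 did not overlap in either genotype, and the fall was -1.50 ± 0.22 in wt and -0.80 ± 0.17 in het (edgeR adjusted p = 8.76e-05 and 0.000858). The next step was 0.10 ± 0.31 in wt and -0.43 ± 0.20 in het and did not pass. The rise from day 2.5 to day 3 passed in het (0.68 ± 0.19, edgeR adjusted p = 0.0183) but not without day 2.5 line 3 (0.051) or day 3 line 1 (0.0666). In wt it was 0.78 ± 0.26 and missed the threshold (edgeR adjusted p = 0.0545), whereas it passed with the line as a block (0.82, edgeR adjusted p = 0.0124) and without day 2.5 line 3 (1.04, edgeR adjusted p = 0.0246). A total of 198 bases of Zeb1 exons overlap Gm10125 on the opposite strand, and since the strandedness of each library is not stated the reads of such pairs cannot be told apart.

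Zeb2 (chr2:44983632-45117395, minus strand) rose from day 0 to day 3. In the wt lines it stood at 2.56, 2.14 and 1.95 CPM on day 0, 5.06, 5.92 and 3.85 on day 2, 12.7, 14.2 and 9.22 on day 2.5, and 26.4, 21.7 and 18.6 on day 3. In the het lines it stood at 1.01, 2.42 and 2.37 CPM on day 0, 5.10, 3.89 and 2.08 on day 2, 13.3, 14.6 and 14.6 on day 2.5, and 29.1, 18.4 and 19.4 on day 3. No 2 days overlapped in wt, and in het only days 0 and 2 did. From day 0 to day 3 the log2 fold change was 3.33 ± 0.24 in wt and 3.55 ± 0.28 in het (edgeR adjusted p = 2.72e-07 and 2.25e-07). The step after Wnt activation gave 1.29 ± 0.28 in wt and 1.93 ± 0.27 in het (edgeR adjusted p = 0.0042 and 6.25e-05). The step to day 2 passed in wt (1.16 ± 0.39, edgeR adjusted p = 0.0267) but not without day 0 line 2 or line 3 or day 2 line 1 or line 2 (0.0614 to 0.104), and in het it was 0.95 ± 0.46 (edgeR adjusted p = 0.0921) and passed without day 2 line 3 (1.23, 0.0218). The last step passed in wt (0.89 ± 0.21, edgeR adjusted p = 0.0159) and het (0.61 ± 0.17, edgeR adjusted p = 0.0205), and was lost without wt day 3 line 1 (0.0575) or line 2 (0.0512), and without het day 2.5 line 1 (0.0736) or het day 3 line 1, where it was 0.38 (0.0681). In the fit of all 24 libraries the het value of this step did not pass (0.64, edgeR adjusted p = 0.0863). Of its exons, 653 bases overlap the antisense gene Zeb2os.

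Vim (chr2:13573927-13582826, plus strand) fell to day 2 and rose over the step in which Cdh2 rose. The wt lines held 103, 124 and 121 CPM on day 0, 54.9, 75.4 and 96.7 on day 2, 139, 167 and 193 on day 2.5, and 164, 185 and 193 on day 3. The het lines held 110.4, 94.1 and 96.7 CPM on day 0, 75.0, 67.5 and 74.3 on day 2, 192, 159.8 and 168 on day 2.5, and 267, 168 and 246 on day 3. Every day 2 library was below the day 0 and day 2.5 libraries of its genotype. The fall to day 2 was -0.61 ± 0.17 in wt and -0.46 ± 0.09 in het (edgeR adjusted p = 0.00828 and 0.000326), and the rise to day 2.5 was 1.14 ± 0.18 in wt and 1.26 ± 0.09 in het (edgeR adjusted p = 0.00062 and 2.17e-07). To day 3 a further 0.12 ± 0.13 in wt and 0.35 ± 0.14 in het did not pass (edgeR adjusted p = 0.565 and 0.0873), and with the line as a block the het value passed (0.33, edgeR adjusted p = 0.0315), as it did without het day 3 line 2 (0.53, edgeR adjusted p = 0.00383).

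Fn1 (chr1:71585520-71653200, minus strand) fell over 2 steps and then rose. The wt lines held 565, 502 and 534 CPM on day 0, 321, 247 and 270.4 on day 2, 209, 167 and 169.8 on day 2.5, and 404, 355 and 289 on day 3. The het lines held 597, 557 and 555 CPM on day 0, 326, 332 and 332 on day 2, 226, 188 and 186 on day 2.5, and 388, 335 and 337 on day 3. Successive days did not overlap in either genotype, while the ranges of days 2 and 3 overlapped in wt. The fall to day 2 was -0.92 ± 0.11 in wt and -0.77 ± 0.05 in het (edgeR adjusted p = 1.51e-05 and 9.49e-09), and the fall to day 2.5 was -0.61 ± 0.13 in wt and -0.73 ± 0.09 in het (edgeR adjusted p = 0.00452 and 1.69e-05). The rise to day 3 was 0.93 ± 0.14 in wt and 0.79 ± 0.10 in het (edgeR adjusted p = 0.00226 and 0.00027). Its exons share 292 bases with Apol7d on the other strand.

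Because the 10 genes were chosen with earlier results of these data known, counts of members that passed are descriptions and no independent support. The members missing from a test were Snai2 and Cdh11, which fell below the filter on low counts. Snai2 was missing from both steps up to day 2.5 in wt and from the steps from day 0 in het, and Cdh11 from the step to day 2 in het. From day 0 to day 2, 6 of 9 tested members passed in wt, where 44.3% of 15521 genes did, and 6 of 8 in het, where 56.1% of 15303 did. In each genotype 3 of these were higher and 3 lower, against 22.4% higher and 21.9% lower of all genes in wt and 28.0% higher and 28.1% lower in het. From day 2 to day 2.5, 6 of 9 passed in wt against 29.1% of all genes, and 7 of 10 in het against 44.7%. A gene enters the fit if 3 libraries reach the filter's minimum, and where just 1 of the days supplies all 3 the filter favours genes that are high on that day, so no count is read from such members. Leaving them out (Cdh11 in wt, Cdh11 and Snai2 in het), 6 of 8 passed in each genotype. Of these 6 members, 3 were higher in wt (14.6% of all genes) and 3 in het (21.8%), and in either genotype Cdh1, Epcam and Fn1 were lower, 3 members against 14.5% of all genes in wt and 22.9% in het. From day 2.5 to day 3, 2 of 10 passed in wt against 19.1% of all genes, and 4 of 10 in het against 29.8%. Leaving out Snai2 for the same reason, the counts were 2 of 9 and 4 of 9. All were higher, which 8.99% of all genes were in wt and 13.8% in het, while 10.1% and 16.0% were lower. With the line as a block the wt count of that step was 4, and 4687 in place of 2923 genes passed in all, while the het count was 6, with 4876 in place of 4710 genes. Without het day 3 line 3 the number of genes in het was 3014 and without het day 3 line 1 the member count was 1.

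From day 0 to day 3, 8 of 10 members passed in wt against 53.6% of all genes, and 8 of 9 in het against 64.3%. In wt 4 were higher (27.0% of all genes) and 4 lower (26.6%), and in het 5 were higher (32.7%) and 3 lower (31.6%). Just day 3 had all 3 libraries at the filter's minimum for Cdh11 and Snai2 in wt and for Cdh11 in het. Leaving these out 7 of 8 passed in each genotype, 3 higher and 4 lower in wt and 4 higher and 3 lower in het. This comparison shares its libraries with the steps above. Of 16 endoderm markers tested over it, 13 were higher in wt and 15 in het. Their part in the values of the members was not tested. Higher in both were Cdh2 (2.94 in wt and 3.44 in het on the log2 scale), Zeb2 and Vim (0.65 in wt and 1.19 in het). Lower in both were Cdh1 (-0.84 in wt and -0.42 in het), Zeb1 (-0.61 in wt and -0.51 in het) and Fn1 (-0.60 in wt and -0.68 in het). Epcam was lower in wt (-0.40, edgeR adjusted p = 0.0179), a call lost without day 3 line 2, where it was -0.25 (0.0568), without day 0 line 3 (0.0523) or by library totals alone (0.0596). In het Epcam was at -0.14 (edgeR adjusted p = 0.102), and passed without day 3 line 2 (-0.19, 0.0359). Cdh11 gave 4, 6 and 3 counts on day 0 and 41, 21 and 21 on day 3 in het, a log2 fold change of 2.34 that is a description, since the gene entered the fit only through day 3. In wt its value of 2.19 is a description as well. The het rise of Snai1 (0.70, edgeR adjusted p = 0.0375) was lost without 4 of the 6 libraries in turn (day 0 lines 1 and 3, day 3 lines 1 and 2, at 0.0636 to 0.132) and in the fit of all 24 libraries (0.0807). The het fall of Zeb1 was lost without day 0 line 1 (0.0824) or day 3 line 3 (0.0613) and by library totals alone (0.0502).

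**Figure D3:**
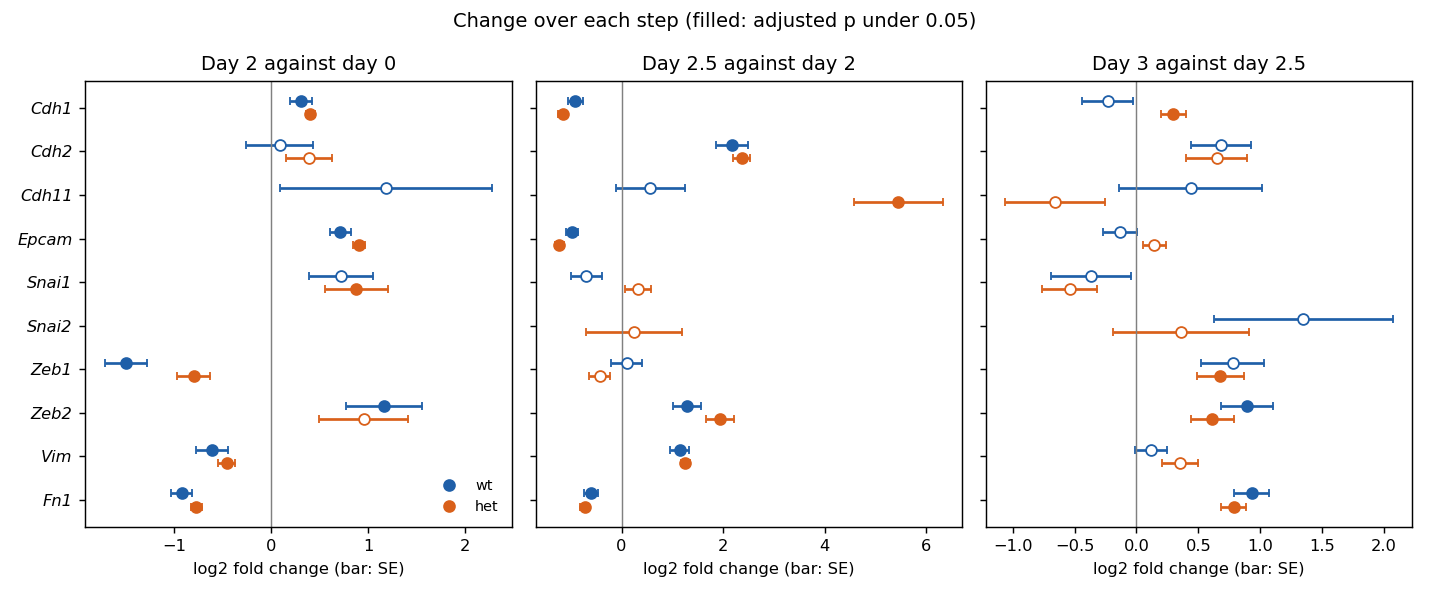
Log2 fold change of each gene over each step (horizontal axes, which differ in range, bars show the SE) in wt and het lines, filled where the edgeR adjusted p was under 0.05. Cdh1, Epcam, Vim and Fn1 point the same way in wt and het over the steps to days 2 and 2.5, and a missing point is a gene below the filter on low counts. The filled Cdh11 point of het to day 2.5 entered the fit only through day 2.5.

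The neighbouring genes of these pathways were taken from 6 lists, also chosen with earlier results of these data known. Genes given with their values passed in the same direction in both genotypes without overlap of the days. A low gene can enter a fit only through the day on which it is high, as some members did. Such genes were not left out of the list counts and medians, which are therefore descriptions. The list counts are set against the shares of all genes that were higher and lower. These were 22.4% and 21.9% in wt and 28.0% and 28.1% in het for the step to day 2. For the step to day 2.5 these were 14.6% and 14.5% in wt and 21.8% and 22.9% in het, and for that to day 3 they were 8.99% and 10.1% in wt and 13.8% and 16.0% in het. Over the step to day 2 the endoderm markers also rose, 12 of 16 tested in each genotype, and their part in the counts of any of the 6 lists was not tested. The median over all genes tested was 0.02 in wt and 0.01 in het for the step to day 2, 0.00 and 0.01 for that to day 2.5, and 0.00 and -0.02 for that to day 3. Among 19 other cadherins, of which 8 were tested in each genotype from day 0 to day 2, 3 rose and 1 fell in each (medians 0.87 and 0.41). Cdh5, the endothelial VE-cadherin, rose by 3.15 ± 0.22 in wt and 3.18 ± 0.24 in het (edgeR adjusted p = 1.12e-07 and 2.82e-08), and Cdh10, a type II cadherin, by 1.33 ± 0.43 in wt and 0.96 ± 0.25 in het. After Wnt activation Cdh4 rose in wt, while Cdh5 rose and 2 others fell in het (medians -0.40 and 0.24), and over the last step Cdh4 fell in wt (medians 0.16 and -0.08).

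Of 11 catenins and adaptors of adherens junctions tested from day 0 to day 2, 2 rose and 2 fell in wt, which is no more than the share of all genes, and 5 rose and 3 fell in het (medians -0.10 and 0.04). Nectin2, a junctional adhesion molecule, rose by 0.66 ± 0.12 in wt and 0.96 ± 0.09 in het, and Jup (plakoglobin) changed by -0.72 ± 0.16 in wt and -0.59 ± 0.10 in het. Vcl, which encodes the actin linker vinculin, rose to day 2 (0.52 in wt and 0.45 in het), fell to day 2.5 (-0.71 in wt and -0.55 in het) and rose again to day 3 (0.53 in wt and 0.52 in het). After Wnt activation 1 of 11 rose and 4 fell in wt, and 1 rose and 5 fell in het (medians -0.24 and -0.41). Ctnnd2, the neural delta-catenin, was the one that rose, by 1.59 ± 0.44 in wt and 1.57 ± 0.40 in het. Over the last step 2 rose in wt and 4 rose and 1 fell in het (medians 0.04 and 0.31), Ctnnd1 (p120-catenin) by 0.37 in wt and 0.34 in het.

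Epithelial regulators and junction genes were all tested, 24 in each step. To day 2, 8 rose and 8 fell in wt and 12 rose and 8 fell in het (medians -0.08 and 0.30). Those that rose included the polarity gene Crb3 (1.69 ± 0.23 in wt and 2.06 ± 0.18 in het) and the tight junction gene Ocln (1.28 ± 0.20 in wt and 1.70 ± 0.15 in het). Those that fell included the transcription factor gene Grhl3 (-2.62 ± 0.28 in wt and -2.47 ± 0.18 in het) and the splicing factor gene Esrp2 (-1.10 ± 0.23 in wt and -1.38 ± 0.19 in het). To day 2.5, 1 rose and 10 fell in wt and 2 rose and 14 fell in het, with medians of -0.50 and -0.58. Tjp3 (ZO-3) changed by -1.95 ± 0.31 in wt and -1.92 ± 0.20 in het and Crb3 by -1.72 ± 0.24 in wt and -2.01 ± 0.20 in het, while Lsr, a gene of tricellular junctions, rose by 0.71 in wt and 0.72 in het. To day 3, 6 rose and 3 fell in wt and 12 rose and 1 fell in het (medians 0.29 and 0.46), among those higher Dsp, the desmosomal desmoplakin (1.17 ± 0.18 in wt and 1.22 ± 0.18 in het), and Tjp3 (1.14 ± 0.33 in wt and 1.29 ± 0.18 in het).

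The list of other EMT transcription factors held 10, of which 6 were tested in wt and 5 in het for the step to day 2, when 2 rose in each and 2 fell in wt and 1 in het (medians 0.02 and -0.02). Twist1, a factor of early mesoderm, rose to day 2 by 1.78 ± 0.49 in wt and 1.86 ± 0.37 in het (edgeR adjusted p = 0.00853 and 0.000548), reaching a mean of 5.93 and 6.63 CPM. Klf8 fell over that step by -0.54 ± 0.19 in wt and -1.09 ± 0.12 in het. After Wnt activation Tcf3 rose in wt, and Tcf4 and Klf8 rose in het (medians 0.30 and 0.36), and over the last step Foxc1 rose in het (medians 0.21 and 0.16).

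Of the mesenchymal and matrix genes, 5 of 18 tested rose and 4 fell to day 2 in wt, and 5 of 16 rose and 4 fell in het (medians 0.19 and 0.11), counts close to the shares of all genes. Cd44, the hyaluronan receptor, stood at 0 to 1.07 CPM on day 0 and rose by 3.26 ± 0.72 in wt and 2.09 ± 0.51 in het. With a day 0 library at 0, only day 2 could supply all 3 libraries to the filter, so this rise is a description. The matrix gene Sparc rose by 1.58 ± 0.20 in wt and 0.99 ± 0.10 in het. Sparc and Pdgfra, which rose in each genotype, also belong to the endoderm markers. After Wnt activation 5 of 17 rose and 1 fell in wt and 8 of 18 rose and 4 fell in het, with medians of 0.79 and 0.86. In het 9 of 16 endoderm markers also rose over this step, and 1 of 16 fell in wt. Cd44 rose again by 1.36 ± 0.31 in wt and 2.22 ± 0.22 in het, Pdgfrb by 1.67 ± 0.33 in wt and 1.51 ± 0.27 in het, and Thy1 changed by -1.62 ± 0.38 in wt and -1.91 ± 0.28 in het. To day 3, 2 of 18 rose and 1 fell in wt and 9 of 19 rose and 2 fell in het (medians 0.40 and 0.41), with Ncam1, the neural cell adhesion molecule, at 2.30 ± 0.32 in wt and 1.87 ± 0.26 in het and the collagen gene Col1a2 at 1.96 ± 0.40 in wt and 2.05 ± 0.39 in het.

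Of the integrins that bind fibronectin, 2 of 9 tested rose over the first step in wt, close to the 22.4% of all genes, and 5 of 10 in het against 28.0% (medians 0.29 and 0.45). Itgb1 rose by 0.92 ± 0.10 in wt and 1.01 ± 0.06 in het (edgeR adjusted p = 5.73e-06 and 1.37e-09), and Itgav by 1.23 ± 0.18 in wt and 0.67 ± 0.11 in het. To day 2.5, 3 of 10 fell in wt, and 5 of 10 fell and 1 rose in het (medians -0.29 and -0.36), Itga3 by -0.79 ± 0.15 in wt and -0.70 ± 0.09 in het. To day 3, 2 of 10 rose in each genotype (medians 0.26 and 0.23), Itgb8 by 2.12 ± 0.37 in wt and 2.46 ± 0.38 in het and Itga3 by 0.62 in wt and 0.82 in het.

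**Figure D4:**
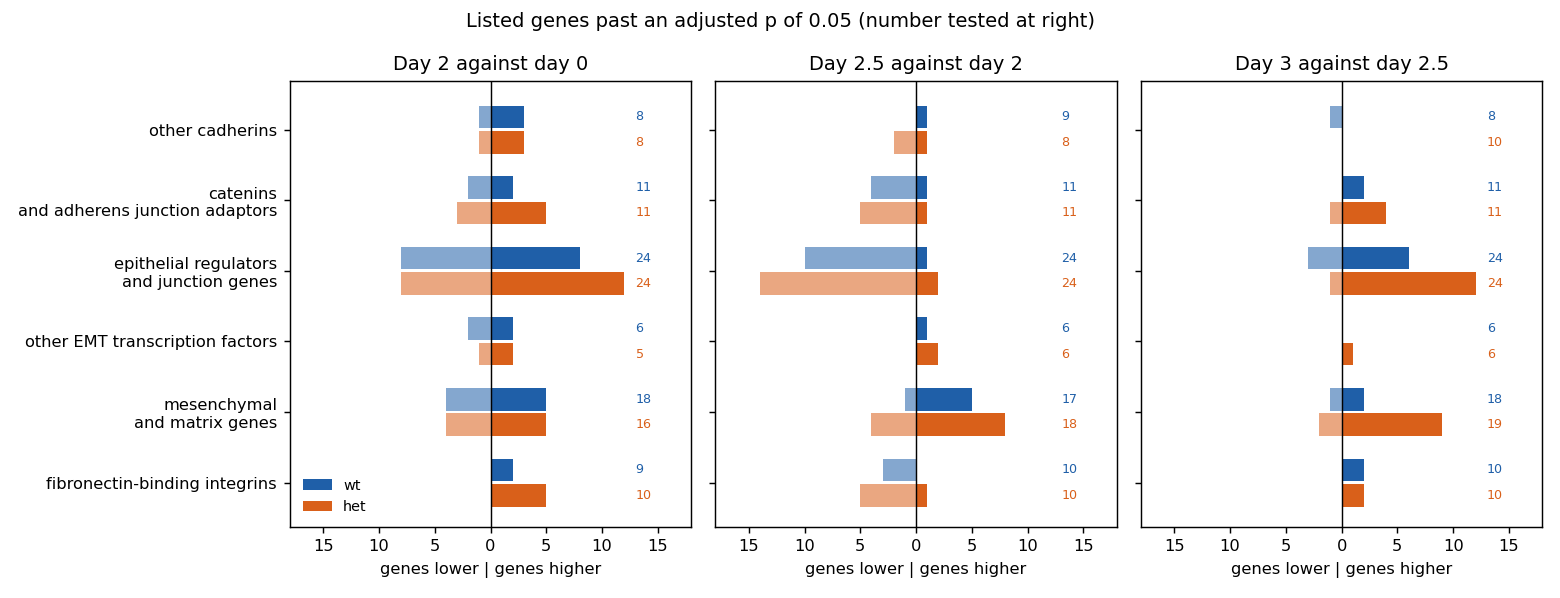
Number of listed genes that passed an edgeR adjusted p of 0.05 over each step, to the right of 0 where higher on the later day and to the left where lower, in wt and het lines, with the number tested at the right edge. Epithelial regulators and junction genes fall most often to day 2.5 (10 of 24 in wt and 14 of 24 in het) and 12 of 24 rise to day 2 and 12 of 24 to day 3 in het.

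Het and wt lines were compared on each day to ask whether loss of the paternal Smchd1 copy went with a change in these genes. Cdh11 and Snai2 were below the filter on days 0 and 2. By edgeR 0 of 8 tested members passed on day 0, where 0% of 15108 genes did, and 0 of 8 on day 2, where 0.551% of 15414 genes did. On day 2.5, 0 of 10 passed, where 0% of 15588 genes did, and on day 3, 0 of 10, where 0.00638% of 15686 genes did. DESeq2 called 0 members on all 4 days and on the summed counts. At an unadjusted p under 0.05 were 2 of 8 members on day 0 (10.9% of all genes), 4 of 8 on day 2 (10.2%), 1 of 10 on day 2.5 (5.27%) and 3 of 10 on day 3 (9.13%). On counts summed over the 4 days 0 of 10 passed (0.00544% of 18371 genes), and 2 were at an unadjusted p under 0.05 (9.05% of all genes). The gene that passed on day 3 and on the summed counts was Smchd1 itself (-0.88 ± 0.10 and -0.76 ± 0.07 on the log2 scale, edgeR adjusted p = 0.0307 and 0.00556).

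The het minus wt value of Snai1 was -1.20 ± 0.32 on day 0 (edgeR adjusted p = 0.334) and -1.03 ± 0.31 on day 2 (edgeR adjusted p = 0.188). Both values passed when genes with low counts were kept in the fit (edgeR adjusted p = 0.0151 and 0.018). That setting raised the calls over all genes from 0 to 369 on day 0 and from 85 to 384 on day 2. The day 2 value of Snai1 also passed without wt line 1 (-1.29, edgeR adjusted p = 0.0261). On the counts summed over days the Snai1 value was -0.59 ± 0.16 (edgeR adjusted p = 0.374), and passed without wt line 1 (-0.68, edgeR adjusted p = 0.0476). On days 2.5 and 3 the differences were 0.02 ± 0.23 and -0.15 ± 0.31. The summed endoderm markers were also apart on day 2, at 7613, 10977 and 15694 CPM in the wt lines and 4692, 6469 and 6077 CPM in the het lines. Of the 20 markers 16 were tested on day 2, and 13 of these passed as lower in het, against 0.5% of all genes. On day 0 the sums were 2367 to 3982 CPM in wt, with Afp, Ttr and Apoa4 at 0 in all 3 libraries, and 1387 to 2001 CPM in het. On days 2.5 and 3, when the Snai1 differences were near 0, the sums overlapped between the genotypes, at 5256 to 13936 CPM in wt and 5565 to 8298 CPM in het and then at 5344 to 10594 CPM in wt and 4113 to 6758 CPM in het. The median het minus wt value of the 16 tested markers was -0.82, -1.02, -0.47 and -0.70 on the log2 scale from day 0 to day 3, and 0 passed on days 0, 2.5 and 3. The part of these markers in the Snai1 values was not tested.

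For Zeb1 all het libraries were above all wt libraries on day 2, with a difference of 0.81 ± 0.25 that did not pass (edgeR adjusted p = 0.201). Epcam (0.21 ± 0.10) and Fn1 (0.23 ± 0.10) were also apart on that day without passing (edgeR adjusted p = 0.458 and 0.436). In all, 4 of 8 tested members did not overlap between the genotypes on day 2, against 15.8% of all genes tested. The endoderm markers given for Snai1 were apart on that day as well, and their part in the Zeb1, Epcam and Fn1 values was not tested. The same count was 1 of 8 on day 0 (Snai1, lower in het, against 17.0% of all genes), 2 of 10 on day 2.5 (Cdh11 and Snai2, both higher in het, against 11.6%) and 2 of 10 on day 3 (14.0%). For Snai2 on day 2.5 just het had all 3 libraries at the filter's minimum, so its separation is no support, and leaving it out Cdh11 was the 1 of 9. On day 3 the separate members were Cdh1 (0.49 ± 0.17, edgeR adjusted p = 0.452) and Epcam (0.29 ± 0.13, edgeR adjusted p = 0.536). The lowest het and highest wt values of Cdh1 were 366 and 364 CPM, the latter in wt line 1. Without that library the Cdh1 difference was 0.74 (edgeR adjusted p = 0.0358). It passed when genes with low counts were kept in the fit (0.50, edgeR adjusted p = 0.00733), a setting that raised the calls over all genes from 1 to 274. With scaling to chromosome 8 alone the Cdh1 difference was 0.56 ± 0.14 (edgeR adjusted p over that chromosome = 0.153). The part of the raised chromosome 8 levels of wt line 1 in these values was not tested.

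The het minus wt value of Vim was -0.23 ± 0.09 on day 0 and 0.32 ± 0.14 on day 3, and that of Cdh2 was 0.39 ± 0.20 on day 2.5, none of which passed (edgeR adjusted p = 0.409, 0.548 and 0.907). For Cdh11 the day 2.5 difference was 1.07 ± 0.43 (edgeR adjusted p = 0.907), and 1.13 ± 0.45 with scaling to chromosome 8. Among the listed neighbours edgeR called 1 of 9 tested other cadherins and 2 of 18 mesenchymal and matrix genes on day 2, all lower in het, and 0 in the other 4 lists, where 0.5% of all genes were lower. They were Cdh5 (-0.89 ± 0.16, edgeR adjusted p = 0.0192), Sparc (-0.92 ± 0.18, edgeR adjusted p = 0.0276) and Pdgfra (-1.19 ± 0.21, edgeR adjusted p = 0.0172). Of these Sparc and Pdgfra are among the endoderm markers.

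**Figure D5:**
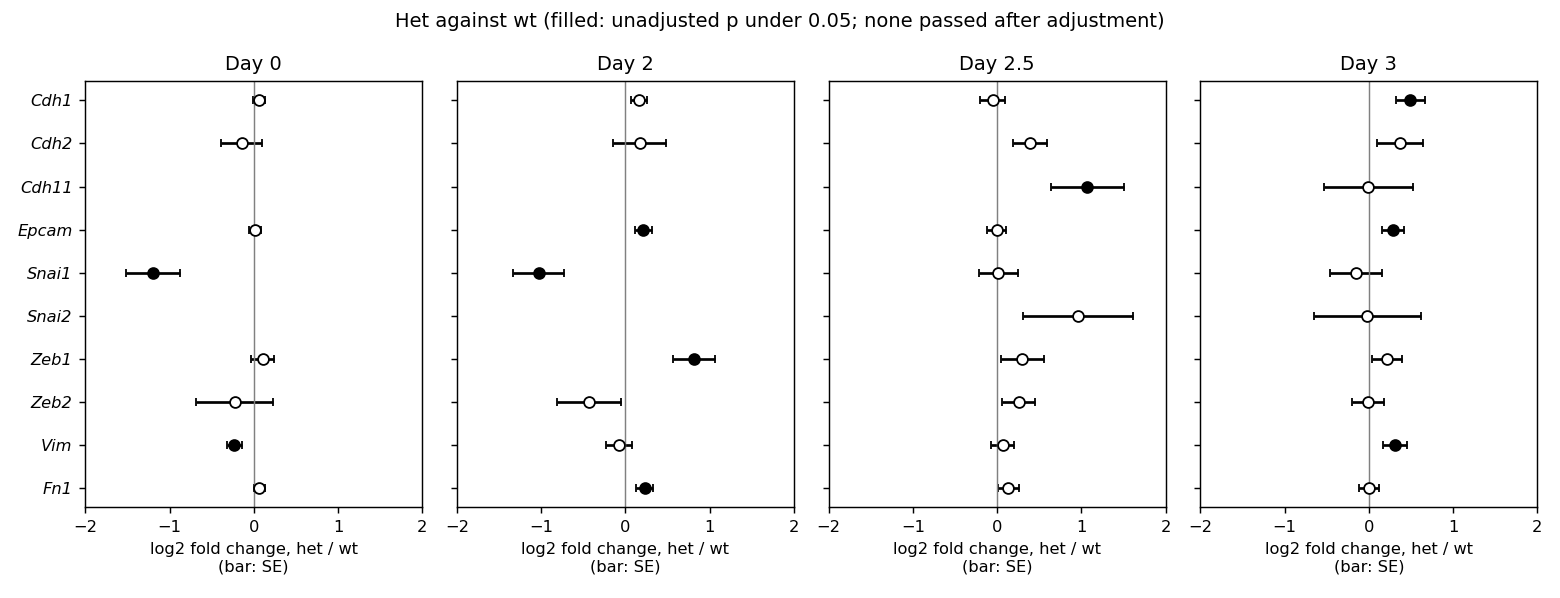
Log2 fold change of het against wt for each gene on each day (horizontal axes, bars show the SE), filled where the unadjusted p was under 0.05. Snai1 lies at -1.20 and -1.03 on days 0 and 2 and near 0 afterwards, and no gene passed after adjustment.

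Whether a step differed between genotypes was tested as an interaction. By edgeR 0 of 9, 0 of 10 and 0 of 10 tested members passed for the steps to days 2, 2.5 and 3, as did 0% of all genes, and DESeq2 called 0 members. At an unadjusted p under 0.05 were Zeb1 to day 2 (0.71 ± 0.28), Snai1 to day 2.5 (1.02 ± 0.41) and Cdh1 to day 3 (0.55 ± 0.26). Their edgeR adjusted p-values were 0.756, 0.952 and 0.999. The Cdh11 value to day 2.5 was 4.89 ± 1.16, which is a description, as is its step in each genotype. Of all genes 6.31%, 5.13% and 3.85% were at that threshold for the 3 steps.

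The genes whose pattern was most like that of each member were sought over the 24 libraries among 12457 genes by Pearson correlation of log2 CPM, as a description, since the libraries share lines and days. Closest to Cdh1 were Foxi3 (r = 0.95), Foxh1 (0.94) and Dtx1 (0.94). Closest to Epcam were Mapk6 (0.96), Ndrg2 (0.96) and Sv2a (0.95). Cdh2 was most like Colec12, Gm45889 and Grsf1 (0.97 each), and Zeb2 most like Tspan6 (0.97), Hoxb3 (0.96) and Hoxa7 (0.95). For Vim these were Cpped1 (0.95), Dsg2 (0.93) and Wnt6 (0.92), for Fn1 Rnf213 (0.96), Pik3cd (0.94) and Mov10 (0.94), and for Zeb1 Trps1 (0.91), Dpysl3 (0.86) and Irf1 (0.86). Snai1 had lower likeness, with Tspan4 (0.74), Nrg2 (0.73) and Mvk (0.72), as did Snai2 with Atat1, Socs6 and Bloc1s5 (0.80, 0.80 and 0.79), and Cdh11 with Bin3, Sema4f and Rnf169 (0.87, 0.86 and 0.84). Among the members, Cdh1 went with Epcam (r = 0.91) and against Vim (-0.85), Cdh2 went with Zeb2 (0.92) and Vim (0.87), and Zeb1 went with Fn1 (0.85) rather than with Zeb2 (-0.41).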

How the data were processed

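Poly(A) RNA-seq was analysed for 24 libraries, 8 groups of genotype and day with 3 lines each. The authors trimmed single-end reads (Trim Galore 0.4.4), aligned them to GRCm38.p6 with HISAT2 2.0.5 and quantified genes in SeqMonk, and deposited raw counts per gene, which were used here as deposited. A pair of log2 tables that do not hold the 10 genes and 8 columns of group means in the count table were not used. Whether each library was stranded is not given in the sources used here.

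In R 4.3.3, edgeR 4.0.16 quasi-likelihood tests with TMM factors and filterByExpr were fitted on all genes of the groups compared, with a threshold of 0.05 on the p adjusted by Benjamini and Hochberg. The procedure was tested on simulated data. Day comparisons used no block, and the line as a block was an alternative. Line numbers pair the days by label, since they mark the same cell line. The correlation of deviations between days was only -0.05 to 0.21 and gives no support of its own. A wt and a het line of the same number are different lines. Other alternatives were DESeq2 1.42.0, TMM replaced by its size factors or by library totals, keeping genes down to 1 count, a fit of all 24 libraries and leaving out each library.

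The members and gene lists were chosen with earlier results of these data known. Named neighbours were, per step, list and direction, up to 2 genes with the largest mean log2 fold change among those that passed in both genotypes without overlap and with at least 50 mean counts in a group. The CPM levels were scaled over all 24 libraries, and gene positions and exon lengths came from GENCODE on GRCm38. Depth sets the limits given for each library.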

Additional observations from a re-analysis of the deposited data

Results flagged for a closer look

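The Cdh11 values of the genotypes differed in sign over the first step. From day 0 to day 2 every wt line was higher and every het line lower, with a mean change of 0.95 in wt and -0.82 in het on the log2(CPM + 0.25) scale. The het minus wt difference was -0.63 CPM on day 2 and 1.13 CPM on day 2.5, with no overlap on either day. The changes to day 2 passed no test, as the wt step was 1.19 ± 1.09 (edgeR adjusted p = 0.407) and in het the gene was below the filter on low counts. The difference between the first steps was tested as an interaction and did not pass (edgeR adjusted p = 0.793). That between days 2 and 2.5 did not pass either (edgeR adjusted p = 0.952), but it is a description, as is that step in each genotype. The counts behind it were low, at 0 to 20 per library on days 0 and 2. On day 2 the het lines gave 1, 0 and 1, below the limit of 3 counts that a count of 0 allows. The wt lines gave 20, 11 and 9 on that day, above the limit.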

How the results depend on the processing

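Of 1935 values of members under alternatives, 68 changed sign, and 0 of these were called in the original fit. Of 47 called changes, 11 lost the call under at least 1 alternative. The call of Snai2 for wt day 3 against day 0, given above as a description, was lost with the block (edgeR adjusted p = 0.0928), by DESeq2 (0.0573), with no filter (0.111) and in a fit of all 24 libraries (0.0592). Calls gained with no filter were Snai1 for wt day 2 against day 0 (edgeR adjusted p = 0.0345) and, for day 3 against day 2.5, Zeb1 and Cdh2 in wt (0.0237 and 0.00412) and Vim and Cdh2 in het (0.00166 and 1.66e-06), beside those given in the report. DESeq2 gained Zeb1 and Cdh2 in wt (0.0201 and 0.0267) and Vim in het (0.0329) for that step. The fit of all 24 libraries gained Zeb1 there in wt (0.0135) and Zeb2 for het day 2 against day 0 (0.0150). Cdh11 for wt day 3 against day 0, given above as a description, was gained in that fit (2.19, edgeR adjusted p = 0.0209). It was also gained without wt day 0 line 1 (3.75, edgeR adjusted p = 0.0142). The count of members called moved by more than 1.5 times as follows. For wt day 3 against day 2.5 it was 2, and 4 with no filter, by DESeq2 and with the line as a replicate block, and 1 to 3 on leaving out each library. For het day 3 against day 2.5 it was 4, 2 in a fit of all 24 libraries, 6 with no filter and with the block, and 1 to 5 on leaving out each library. For het against wt it was 0, and 1 with no filter on days 0, 2 and 3, and 0 to 1 on leaving out each library on days 2 and 3 and in the summed counts. The numbers of genes called for het against wt rose with no filter from 0 to 369 on day 0, from 85 to 384 on day 2, from 0 to 87 on day 2.5, from 1 to 274 on day 3 and from 1 to 190 in the summed counts. By DESeq2 they were 60, 218, 3, 103 and 127, and with the block 25, 97, 0, 100 and 50. On leaving out each library they ranged from 0 to 68 on day 0, 0 to 211 on day 2, 0 to 3 on day 2.5, 0 to 93 on day 3 and 0 to 404 in the summed counts, and a fit of all 24 libraries gave 23 on day 2 and 15 on day 3. The interactions gave 58, 33 and 23 genes with no filter against 0. For wt day 3 against day 2.5 the number of genes was 2923, 4687 with the block, and 1281 to 2721 on leaving out each library. For het it was 4710, 4876 with the block, and 3014 to 4229 on leaving out each library, lowest without het day 3 line 3. The causes were not tested. The block changed no call of a member other than Snai2 here and Cdh2, Zeb1 and Vim in the comparisons named for them in the report. Line numbers do not pair wt with het lines, which are different lines (r from -0.08 to 0.08). Library totals alone kept 75 of 80 mean levels within 1 SD. Prior counts of 0.5, 1 and 5 kept each mean log2 ratio of Cdh1 to Cdh2 within 1 SD. Depth limited Cdh11 and Snai2, which gave at most 50 and 28 counts in a library.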
